A study of Mus musculus with 6 samples.

Results

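The interleukins, their receptor chains and their natural inhibitors were examined in CD11b+ cells purified from mouse tumors after deletion of the pyruvate transporter MCT2 (*Slc16a7*). The members were all rows of the gene count table whose symbol begins with Il followed by a digit. This rule took 84 of 25701 genes (83 symbols, since *Il11ra2* stands in 2 rows) and used no measured value. By the role each product is known for, 38 were ligands, 39 were receptor chains, 6 were inhibitors or decoys, and 1, *Il4i1*, was an enzyme named for its induction by interleukin 4. All mice were MCT2 loxP/loxP; Cre+ on a C57BL/6 background. The MCT2 KO group (n = 3) had received tamoxifen to switch on the Cre recombinase from 8 weeks of age, and the MCT2 CO group (n = 3) had received vehicle, so that the deletion and the drug cannot be told apart. Tumors came from TC1 cells, a mouse lung epithelial tumor line, injected under the skin of the flank, and were taken 24 days later. CD11b+ cells were then selected with magnetic beads, and their poly-A RNA was sequenced in bulk. In the sample records the tissue is lung and the cells are purified macrophages, although the methods place the tumors in the flank. The methods restrict the Cre line to no cell type.

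Interleukins are small secreted proteins that carry signals between leukocytes and the tissue around them. Most bind receptors built from a private chain and a shared one, such as the common gamma chain for the IL-2 group or gp130 for the IL-6 group, and these act through JAK kinases and STAT factors. The IL-1 and IL-17 families instead use receptors that recruit cytosolic adaptors upstream of NF-κB, and the IL-1 family is held back by soluble antagonists and decoy receptors. Macrophages both release interleukins and respond to them.

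The members with the highest level of ligand and of receptor message were *Il1b*, the inflammatory cytokine of activated macrophages, and *Il1rl1*, the receptor ST2 for interleukin 33. Their promoter windows, from 250 bases before to 50 bases after the annotated start, are shown because those 2 genes lead their roles here and because *Il1rl1* has 2 annotated starts, whose transcripts the gene-level count adds together. Sequences are from RefSeq on GRCm38.p6 and are written 5′ to 3′ on the strand of the gene, with capitals for TATAAA in *Il1b* and for GATAA (or TTATC, its reverse complement) in *Il1rl1*.
Il1b, chr2:129371090-129371389, minus strand: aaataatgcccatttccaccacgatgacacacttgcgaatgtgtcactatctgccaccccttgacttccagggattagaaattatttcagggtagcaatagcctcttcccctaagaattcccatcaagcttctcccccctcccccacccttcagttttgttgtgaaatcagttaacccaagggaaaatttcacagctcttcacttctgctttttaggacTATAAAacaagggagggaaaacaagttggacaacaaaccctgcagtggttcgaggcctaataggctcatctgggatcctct
Il1rl1, upstream start, chr1:40429320-40429619, plus strand: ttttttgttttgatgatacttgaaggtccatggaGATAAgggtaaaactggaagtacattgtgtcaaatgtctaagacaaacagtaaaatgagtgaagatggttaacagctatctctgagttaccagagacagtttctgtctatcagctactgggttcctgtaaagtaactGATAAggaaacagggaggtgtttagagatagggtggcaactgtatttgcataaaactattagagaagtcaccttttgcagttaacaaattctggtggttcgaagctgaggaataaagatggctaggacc
Il1rl1, downstream start, chr1:40439379-40439678, plus strand: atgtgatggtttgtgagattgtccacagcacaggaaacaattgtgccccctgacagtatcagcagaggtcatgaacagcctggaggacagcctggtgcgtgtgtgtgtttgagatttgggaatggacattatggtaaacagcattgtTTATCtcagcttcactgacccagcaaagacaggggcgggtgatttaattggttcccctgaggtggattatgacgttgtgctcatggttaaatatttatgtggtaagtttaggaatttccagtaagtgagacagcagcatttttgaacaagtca
TATAAA, the letters of a TATA box, began 31 bases before the *Il1b* start. When both strands were searched, TATAAA stood in 13.6% of all 32851 promoter windows of this length in the RefSeq table. GATAA, the letters that GATA factors bind, began 216 and 79 bases before the upstream *Il1rl1* start and, on the opposite strand, 103 bases before the downstream one. GATAA stood in 25.4% of the windows. These matches describe the letters only, and the counts carry no measure of binding.

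The 6 libraries held between 24863611 and 31713704 counts in genes, and no pair of replicates agreed within sampling noise. Levels are given as CPM (the count over the TMM-scaled library size, per 1000000), and differences as the log2 fold change of MCT2 KO over MCT2 CO with its standard error (SE) from edgeR's quasi-likelihood test, whose p-values were adjusted over all genes tested. *Slc16a7*, on chromosome 10, was at 16, 11 and 11.2 CPM in MCT2 CO and at 8.22, 4.97 and 5.34 CPM in MCT2 KO. The groups did not overlap, at a log2 fold change of -1.05 (SE 0.24), with an adjusted p of 0.370 from edgeR and 0.00908 from DESeq2. The macrophage markers were high throughout, with summed levels of 4520 to 6000 CPM in MCT2 CO and 4680 to 8340 CPM in MCT2 KO. *Itgam*, which encodes CD11b itself, received 1 count over all 6 libraries, with 99.14% of its exonic bases within the span of *Gm49368*, and so could not check the selection. Fibroblast markers summed to 2070, 2260 and 3420 CPM in MCT2 CO and to 1840, 1840 and 1730 CPM in MCT2 KO. In bulk samples, fewer cells of a type and less RNA per cell cannot be told apart.

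Of the 84 members, 12 had no count in any library, 22 had counts but too few to test, and 50 passed the low-count filter (at least 10 counts in as many libraries as a group holds, scaled to library size). The 50 comprised 18 ligands, 27 receptor chains, 4 inhibitors and *Il4i1*. A gene counted as called when its adjusted p did not exceed 0.05 and its log2 fold change reached 0.58 in either direction, and no member was called. Among all 13485 genes tested, edgeR called 0 (0%). DESeq2 called 83 of 18508 genes (0.448%), or 79 of the filtered genes (0.586%), and none of these was a member. At an unadjusted p under 0.05, edgeR found 5 of the 50 members (10%), against 9.37% of all genes tested. The members' share lay near the background in this fit. With DESeq2 on the filtered genes, the shares were 12% and 8.79%. Of the 5 found by edgeR, *Il1rn*, *Il18*, *Il7r* and *Il1rl2* had higher means in MCT2 KO (background in that direction 3.77%). The other, *Il17c*, had a lower mean (background 5.6%).

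The level per kilobase of exon allows members to be ranked against each other, and 44 members could be compared once the 6 with at least 5% of their exonic bases inside another gene were left out. *Il1b* stood first with a mean of 409 CPM per kilobase (237 to 599 over the 6 libraries). *Il1r2*, the decoy that captures interleukin 1 without signalling, came next at 217 CPM per kilobase (158 to 296), followed by *Il1rl1* at 163 CPM per kilobase (114 to 195). *Il10ra*, the private chain of the interleukin 10 receptor, was at 82.8 CPM per kilobase (53.2 to 118). Each range overlapped the next, but within a library *Il1b* was above *Il1r2* in 6 of 6 and *Il1rl1* above *Il10ra* in 6 of 6, whereas *Il1r2* was above *Il1rl1* in 5 of 6. These first 4 places were the same in MCT2 CO and MCT2 KO. *Il7*, a growth factor for lymphocytes made mostly by stroma, was the lowest at 0.149 CPM per kilobase.

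Among the ligands, no gene was called, 11 of 18 had a positive and 7 a negative log2 fold change, and their median was 0.09 against 0.00 over all genes tested. Between 0.02 and 0.23 resulted when single libraries were left out, the highest without MCT2 KO replicate 2. *Il1b* (ENSMUSG00000027398, GRCm38 chromosome 2, 129364570 to 129371139) was at 842, 878 and 637 CPM in MCT2 CO and at 1140, 452 and 728 CPM in MCT2 KO. The highest and the lowest of the 6 values were both MCT2 KO libraries, and the means, 786 ± 130 and 774 ± 348 CPM (SD, n = 3), lay within that spread. The log2 fold change of *Il1b* was -0.02 (SE 0.30), and it ran from -0.41 without MCT2 KO replicate 1 to 0.25 without MCT2 KO replicate 2. *Il1a*, the sister cytokine that is active without cleavage, was at 22.3, 13.7 and 15.4 CPM in MCT2 CO and at 32.4, 29.8 and 14.2 CPM in MCT2 KO. MCT2 KO replicates 1 and 2 lay above every MCT2 CO library and replicate 3 lay among them, for a log2 fold change of 0.57 (SE 0.31, adjusted p 0.598).

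*Il33* (ENSMUSG00000024810, chromosome 19, 29925114 to 29960718), an alarmin held in the nucleus of stromal and epithelial cells, was at 145, 157 and 65.8 CPM in MCT2 CO and at 140, 212 and 199 CPM in MCT2 KO. MCT2 CO replicate 3 stood apart at the low end, and MCT2 KO replicate 1 lay below the other two MCT2 CO values, so the groups overlapped. The log2 fold change was 0.58 (SE 0.31, adjusted p 0.588) and 0.28 without MCT2 CO replicate 3. MCT2 CO replicate 3 also had the highest sum of fibroblast markers, whose part in the *Il33* value was not tested. *Il18* (ENSMUSG00000039217, chromosome 9, 50554827 to 50581840), which drives interferon gamma release by lymphocytes, was at 12.6, 9.19 and 9.86 CPM in MCT2 CO and at 14.7, 12.9 and 13.1 CPM in MCT2 KO. All MCT2 KO libraries were above all MCT2 CO libraries, by the narrow gap from 12.6 to 12.9 CPM. The log2 fold change of *Il18* was 0.36 (SE 0.15, unadjusted p 0.0403, adjusted p 0.521 by edgeR), and 14.65% of its exonic bases lie within *Bco2*.

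*Il10*, the cytokine that restrains macrophage activation, was at 27.7, 28.1 and 36.9 CPM in MCT2 CO and at 49.3, 24.2 and 22.7 CPM in MCT2 KO. A single library, MCT2 KO replicate 1, was higher than the rest, and without it the log2 fold change went from 0.05 (SE 0.29) to -0.39. *Il12b*, the p40 chain shared by interleukins 12 and 23, was at 11.5, 10.9 and 4.29 CPM in MCT2 CO and at 21.1, 3.25 and 10.3 CPM in MCT2 KO. This was the widest spread of any member, 6.48-fold between the highest and the lowest library, both of them MCT2 KO, and its log2 fold change of 0.37 had an SE of 0.61. *Il6*, an inflammatory and acute-phase cytokine, was at 16.7, 15.3 and 9.37 CPM in MCT2 CO and at 13.7, 8.66 and 19.1 CPM in MCT2 KO. The *Il6* groups overlapped over almost their whole range.

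*Il11*, a gp130 cytokine of stromal cells, was at 33.3, 38.6 and 19.1 CPM in MCT2 CO and at 29.3, 32.5 and 38.3 CPM in MCT2 KO. *Il15*, which sustains NK cells and memory T cells, was at 17.0, 18.2 and 15.5 CPM in MCT2 CO and at 16.1, 14.5 and 23.1 CPM in MCT2 KO. *Il11* and *Il15* overlapped between the groups, with log2 fold changes of 0.14 (SE 0.24) and 0.08 (SE 0.18). The remaining tested ligands outside the IL-17 family were *Il27*, *Il34*, *Il4*, *Il16*, *Il23a* and *Il7*, with log2 fold changes from -0.17 (*Il4*) to 0.28 (*Il7*). Of their exonic bases, 54.6% of those of *Il16* lie within *Stard5* and 10.09% of those of *Il27* within *Apobr*.

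The IL-17 ligands, best known from T cells and epithelia, had the lowest fold changes of the ligands. *Il17c* (ENSMUSG00000046108, chromosome 8, 122422020 to 122423639), an epithelial form that acts on its neighbours through *Il17re*, was at 0.834, 0.654 and 0.903 CPM in MCT2 CO and at 0.419, 0.399 and 0.362 CPM in MCT2 KO. Every MCT2 KO library was below every MCT2 CO library, at a log2 fold change of -1.01 (SE 0.30, unadjusted p 0.00937, adjusted p 0.429 by edgeR) that ranged from -1.13 to -0.92 when each library was left out. These values rest on 25, 17 and 24 counts in MCT2 CO and on 10, 13 and 9 counts in MCT2 KO. From DESeq2 on the filtered genes, *Il17c* had an SE of 0.52, an unadjusted p of 0.0513 and an adjusted p of 0.574. *Il17d* was at 1.33, 0.923 and 1.47 CPM in MCT2 CO and at 0.839, 0.859 and 0.803 CPM in MCT2 KO, and it too did not overlap (log2 fold change -0.57, SE 0.27, adjusted p 0.558). The log2 fold change of *Il17f* was -0.39 (SE 0.32), with overlapping groups. *Il17a*, the founding member made by Th17 cells, had no count.

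**Figure D1:**
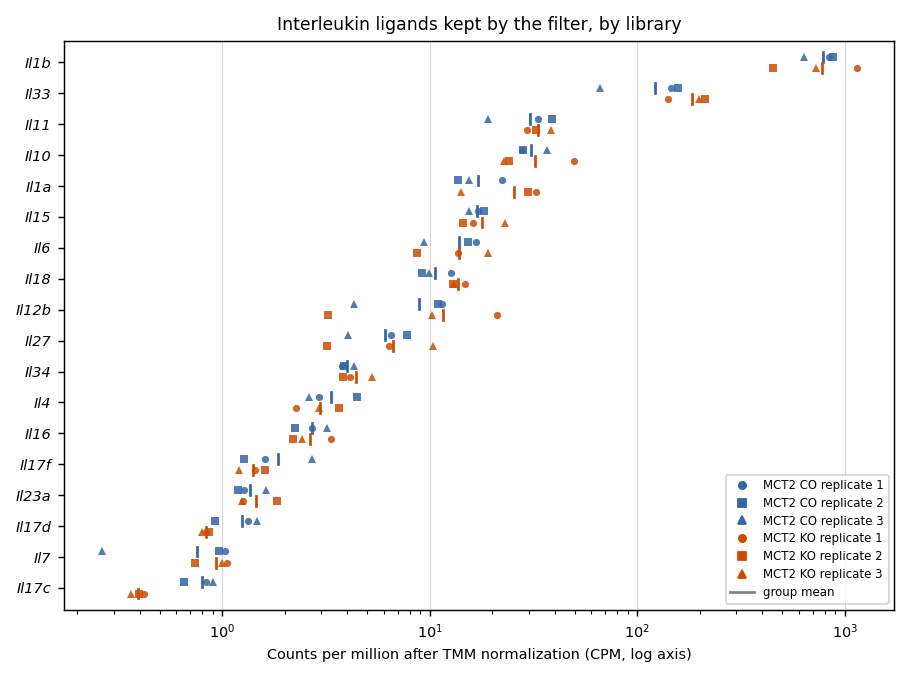
Levels of the 18 interleukin ligands kept by the filter, in CPM after TMM normalization on a log axis, with 1 symbol per library (blue MCT2 CO, orange MCT2 KO; n = 3 each) and a vertical line at each group mean. *Il1b* is the highest, with MCT2 KO libraries at both ends of its spread (1140 and 452 CPM), and *Il17c*, *Il17d* and *Il18* are the ligands whose groups do not overlap.

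Among the receptor chains, no gene was called, 19 of 27 had a positive and 8 a negative log2 fold change, and their median was 0.09. This median was -0.02 without MCT2 KO replicate 1 and 0.31 without MCT2 KO replicate 2. *Il7r* (ENSMUSG00000003882, chromosome 15, 9505788 to 9530176), the chain that lymphocytes use for interleukin 7 and that also serves the TSLP receptor, was at 10.5, 12.5 and 6.28 CPM in MCT2 CO. It was at 24.4, 12.9 and 21.7 CPM in MCT2 KO, with means of 9.76 ± 3.16 and 19.6 ± 6.01 CPM (SD, n = 3). All MCT2 KO libraries lay above all MCT2 CO libraries, but MCT2 KO replicate 2 only by the step from 12.5 to 12.9 CPM. The log2 fold change of 1.01 (SE 0.30, unadjusted p 0.00955) had an adjusted p of 0.429 by edgeR and of 0.0511 by DESeq2, the latter just outside the threshold. It ranged from 0.77 to 1.24 when each library was left out. The summed T cell markers were 47.3, 72.5 and 52.6 CPM in MCT2 CO and 63.5, 15.8 and 98.2 CPM in MCT2 KO. The sum was lowest in MCT2 KO replicate 2, where *Il7r* was also the lowest of its group, yet above every MCT2 CO library. The sum was highest in MCT2 KO replicate 3, whereas *Il7r* was highest in MCT2 KO replicate 1. The part of the T cell markers in the *Il7r* value was not tested.

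Of the IL-1 family receptors, *Il1rl1* (ENSMUSG00000026069, chromosome 1, 40429570 to 40465415) was at 1140, 1200 and 787 CPM in MCT2 CO and at 989, 1290 and 1340 CPM in MCT2 KO. The groups overlapped, with means of 1040 ± 223 and 1210 ± 191 CPM (SD, n = 3) and a log2 fold change of 0.21 (SE 0.19, adjusted p 0.753). ST2 is a known receptor of mast cells and basophils, whose summed markers were at 36.4 to 59.0 CPM in MCT2 CO and 26.8 to 36.2 CPM in MCT2 KO. Most of that sum was *Gata2*, at 25.7 to 51.5 CPM. *Cpa3*, *Mcpt4*, *Tpsb2* and *Cma1* reached at most 2.03 CPM in MCT2 CO and 0.161 CPM in MCT2 KO, and *Mcpt8* at most 1.27 and 2 CPM. The part of these cells in the *Il1rl1* value was not tested. *Il1rl2* (ENSMUSG00000070942, chromosome 1, 40324610 to 40367562), the receptor for interleukin 36, was at 8.51, 6.69 and 5.87 CPM in MCT2 CO and at 14.8, 12.3 and 7.31 CPM in MCT2 KO. MCT2 KO replicates 1 and 2 were above all MCT2 CO libraries and replicate 3 was not, for a log2 fold change of 0.71 (SE 0.26, unadjusted p 0.0275, adjusted p 0.491 by edgeR).

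*Il1r1*, the signalling receptor for interleukin 1, was at 89.1, 92.6 and 102 CPM in MCT2 CO and at 76.9, 89.9 and 80.6 CPM in MCT2 KO. Its groups overlapped only at MCT2 KO replicate 2 (log2 fold change -0.19, SE 0.09, adjusted p 0.558). *Il1rap*, the accessory chain that the receptors for interleukins 1, 33 and 36 share, was at 102, 97.0 and 96.9 CPM in MCT2 CO and at 98.7, 122 and 105 CPM in MCT2 KO (0.14, SE 0.09). *Il18rap* and *Il18r1*, the chains for interleukin 18, had log2 fold changes of 0.25 (SE 0.17) and 0.02 (SE 0.53).

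The tested chains of the interleukin 4, 6, 10 and 21 receptors were abundant and had small differences between the group means. *Il2rg*, the common gamma chain, could not be measured. *Il4ra*, which binds interleukins 4 and 13, was at 257, 280 and 254 CPM in MCT2 CO and at 337, 232 and 275 CPM in MCT2 KO. *Il13ra1*, its partner outside lymphocytes, was the steadiest member, with 231, 216 and 197 CPM in MCT2 CO and 224, 209 and 206 CPM in MCT2 KO. Their log2 fold changes were 0.09 (SE 0.14) and -0.01 (SE 0.09), and the 6 *Il13ra1* values spanned only 1.17-fold.

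*Il6st*, which encodes gp130, was at 144, 161 and 167 CPM in MCT2 CO and at 140, 141 and 145 CPM in MCT2 KO. MCT2 CO replicate 1 lay within the MCT2 KO range (log2 fold change -0.15, SE 0.08, adjusted p 0.607). *Il6ra*, the chain private to interleukin 6, was at 112, 103 and 92.3 CPM in MCT2 CO and at 116, 84.7 and 109 CPM in MCT2 KO (0.01, SE 0.13).

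*Il10ra* was at 306, 292 and 230 CPM in MCT2 CO and at 413, 186 and 311 CPM in MCT2 KO. *Il10rb*, the chain it shares with other IL-10 family receptors, was at 56.5, 54.3 and 44.2 CPM in MCT2 CO and at 73.1, 43.5 and 55.8 CPM in MCT2 KO. *Il21r*, a common gamma chain partner, was at 95.3, 108 and 85 CPM in MCT2 CO and at 135, 70.9 and 107 CPM in MCT2 KO. In each of these 3 receptors MCT2 KO replicate 1 was the highest library and MCT2 KO replicate 2 the lowest, and the MCT2 CO values lay between them. Their log2 fold changes were 0.13 (SE 0.26), 0.15 (SE 0.18) and 0.12 (SE 0.21), and without MCT2 KO replicate 1 that of *Il10ra* was -0.15 and that of *Il10rb* -0.05. For *Il10rb*, 48.14% of the exonic bases lie within the span of *Gm21970*.

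Of the IL-17 receptor chains, 3 could be tested. *Il17ra*, which all receptors of the family share, was at 112, 106 and 85.6 CPM in MCT2 CO and at 163, 109 and 111 CPM in MCT2 KO (log2 fold change 0.34, SE 0.17). *Il17rd*, a chain also known for restraining growth factor signals, was at 4.64, 4.92 and 4.85 CPM in MCT2 CO and at 5.32, 6.54 and 5.78 CPM in MCT2 KO. *Il17rd* did not overlap (0.29, SE 0.15), whereas *Il17ra* overlapped at MCT2 CO replicate 1. *Il17rc*, the partner of *Il17ra* for interleukins 17A and 17F, had a log2 fold change of -0.08 (SE 0.11).

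*Il27ra*, the private chain for interleukin 27, was at 4.90, 4.96 and 4.21 CPM in MCT2 CO and at 5.03, 5.16 and 6.91 CPM in MCT2 KO. The groups did not overlap, but the step from 4.96 to 5.03 CPM was far smaller than the spread within either group (log2 fold change 0.28, SE 0.18). The other receptor chains, *Il2ra*, *Il2rb*, *Il3ra*, *Il11ra1*, *Il12rb1*, *Il12rb2*, *Il15ra*, *Il20rb* and *Il31ra*, had log2 fold changes from -0.22 (*Il3ra*) to 0.45 (*Il12rb1*), and their groups overlapped.

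Some chains known from T and NK cells varied widely within MCT2 KO. *Il2rb*, the beta chain for interleukins 2 and 15, was at 35.2, 65.0 and 40.0 CPM in MCT2 CO and at 40.8, 23.8 and 82.3 CPM in MCT2 KO. *Il18r1* was at 4.17, 5.77 and 4.21 CPM in MCT2 CO and at 4.03, 1.5 and 8.96 CPM in MCT2 KO. *Il12rb2*, the interleukin 12 receptor chain of Th1 cells, was at 4.14, 4.96 and 4.63 CPM in MCT2 CO and at 4.65, 1.87 and 6.63 CPM in MCT2 KO. For *Il12rb2*, 40.04% of the exonic bases lie within *Serbp1*. All 3 were highest in MCT2 KO replicate 3 and lowest in MCT2 KO replicate 2, which were also the libraries with the highest and the lowest sum of T cell markers (98.2 and 15.8 CPM). These 3 were singled out after their values were seen, and other such chains differed. *Il2ra* was highest in MCT2 CO replicate 2, *Il12rb1* was lowest in MCT2 CO replicate 1, and *Il18rap* and *Il15ra* were lowest in MCT2 CO replicate 3. For *Il2rb* the full order of the 6 libraries was that of the T cell marker sums. The NK cell markers summed to 51.0, 86.1 and 61.0 CPM in MCT2 CO and to 61.3, 65.5 and 116 CPM in MCT2 KO, and the part of either cell type in these values was not tested.

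**Figure D2:**
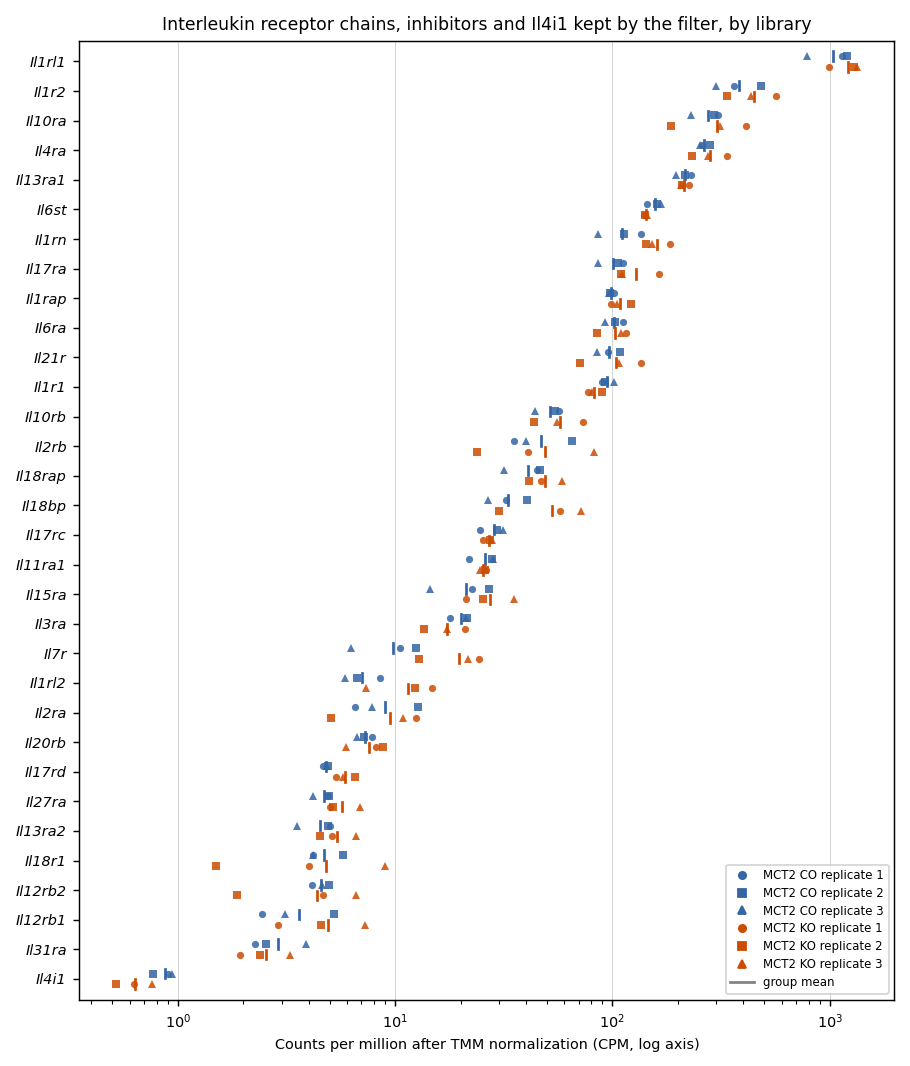
Levels of the 27 receptor chains, the 4 inhibitors and *Il4i1*, in CPM after TMM normalization on a log axis, with 1 symbol per library (blue MCT2 CO, orange MCT2 KO; n = 3 each) and a vertical line at each group mean. *Il1rl1* is the highest, *Il13ra1* and *Il6st* have the tightest groups, and in *Il18r1* and *Il12rb2* MCT2 KO replicate 2 lies far to the left of the other libraries.

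The 4 inhibitors and decoys that could be tested all had positive log2 fold changes, with a median of 0.39, and none was called. Positive values were found for 6753 of all 13485 genes tested and for 9 of 9 macrophage markers tested, whose median was 0.27. *Il1rn* (ENSMUSG00000026981, chromosome 2, 24336853 to 24351494), the receptor antagonist that blocks interleukin 1, was at 136, 113 and 85.8 CPM in MCT2 CO and at 184, 143 and 152 CPM in MCT2 KO. All MCT2 KO libraries were above all MCT2 CO libraries, with means of 111 ± 25.1 and 160 ± 21.7 CPM (SD, n = 3). The log2 fold change of 0.52 (SE 0.17, unadjusted p 0.0159) had an adjusted p of 0.444 by edgeR and of 0.174 by DESeq2, and it ranged from 0.36 to 0.69 when each library was left out. The summed macrophage markers were highest in MCT2 KO replicate 1 (8340 CPM), which was also the highest library for *Il1rn*, and lowest within MCT2 KO in replicate 2 (4680 CPM), and their part in this value was not tested.

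*Il18bp*, the soluble protein that neutralizes interleukin 18, was at 32.4, 40.5 and 26.8 CPM in MCT2 CO and at 57.2, 30.0 and 71.3 CPM in MCT2 KO. MCT2 KO replicate 2 lay within the MCT2 CO range and the other two were above it (log2 fold change 0.67, SE 0.29, adjusted p 0.540). *Il1r2* was at 364, 481 and 301 CPM in MCT2 CO and at 565, 337 and 436 CPM in MCT2 KO, so the groups overlapped, at 0.22 (SE 0.22). *Il1r2* is also a known product of neutrophils, whose summed markers were at 83.3 to 103 CPM in MCT2 CO and at 69.6 to 186 CPM in MCT2 KO. Most of that sum was *Csf3r*, at 70.9 to 94.3 CPM in MCT2 CO and 41.1 to 120 CPM in MCT2 KO. Over the 8 neutrophil markers tested, 7 log2 fold changes were positive (median 1.70). The groups did not overlap for 6, against 15.8% of all genes tested, and DESeq2 called 5, against 0.448% of all genes. Among the 5 was *S100a9*, at 3.5, 2.58 and 4.18 CPM in MCT2 CO and 20.9, 9.12 and 7.63 CPM in MCT2 KO (adjusted p 3.66e-04 from DESeq2). *Csf3r* and *Cxcr2* overlapped between the groups, with log2 fold changes of 0.11 and -0.17. The part of neutrophils in the values of the inhibitors was not tested. *Il13ra2*, the decoy for interleukin 13, had a log2 fold change of 0.27 (SE 0.21). *Il4i1*, a secreted amino acid oxidase of antigen-presenting cells, was at 0.901, 0.769 and 0.941 CPM in MCT2 CO and at 0.629, 0.522 and 0.763 CPM in MCT2 KO. The *Il4i1* groups did not overlap (-0.46, SE 0.28, adjusted p 0.645), and 86.27% of its exonic bases lie within *Tbc1d17*.

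The messages of a cytokine and its partner can be compared within a library, where scaling cancels, and 4 such ratios of counts were formed after the values had been seen. The ratios were not corrected for exon length, and they measure neither protein nor which cells made each message. Adjusting over the 4 ratios does not cover their choice. The ratio of *Il1rn* to *Il1b* was 0.161, 0.128 and 0.135 in MCT2 CO and 0.161, 0.317 and 0.209 in MCT2 KO. The groups did not overlap, but MCT2 KO replicate 1 and MCT2 CO replicate 1 were equal to 3 digits. Across the groups the log2 difference was 0.65 (0.38 to 0.87 when single libraries were left out), with an exact two-sided permutation p of 0.1, or 0.2 adjusted over the 4 ratios. The ratio of *Il33* to *Il1rl1*, ligand to receptor, was 0.127, 0.131 and 0.0837 in MCT2 CO and 0.141, 0.164 and 0.148 in MCT2 KO. These groups did not overlap either, at a log2 difference of 0.44 (0.23 to 0.55), and the exact permutation p was again 0.1 (adjusted 0.2), which is the smallest that 3 against 3 libraries can give. The ratios of *Il1r2* to *Il1r1* and of *Il18bp* to *Il18* overlapped, with exact permutation p-values of 0.4 and 0.7.

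**Figure D3:**
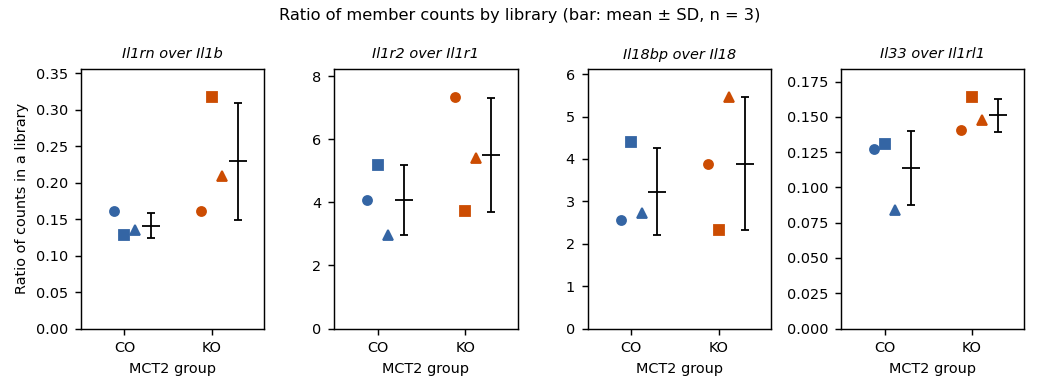
Ratios of counts within each library for 4 pairs of members, 1 point per library (circle, square and triangle for replicates 1, 2 and 3; blue MCT2 CO, orange MCT2 KO), with the mean and SD of each group (n = 3) as a bar to the right of its points; every axis starts at 0. The groups do not overlap for *Il33* over *Il1rl1* and, by less than 3 digits show, for *Il1rn* over *Il1b*, which is highest in MCT2 KO replicate 2 at 0.317.

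Over the 50 tested members together, 34 log2 fold changes were positive and 16 negative, with a median of 0.11 and a range from -1.01 to 1.01. The groups did not overlap for 8 members (16%), against 15.8% of all genes tested. Of these, 5 were higher in MCT2 KO (*Il1rn*, *Il18*, *Il7r*, *Il27ra* and *Il17rd*), beside a background of 7.07%, and 3 were lower (*Il17c*, *Il17d* and *Il4i1*), beside 8.77%. A log2 fold change of 0.58 or more in either direction was found in 5 members (*Il7r*, *Il1rl2*, *Il18bp*, *Il33* and *Il17c*), against 5.84% of all genes tested. By family, 11 of 13 tested IL-1 family members had a positive value (median 0.25), as did 9 of 11 members of the common gamma chain group with interleukin 13 (median 0.09), 5 of 6 of the IL-12 family (0.20) and 4 of 4 of the IL-10 family (0.11). In the IL-17 family 4 of 6 values were negative (median -0.24), as were 4 of 6 in the IL-6 and gp130 group (-0.02). The only tested chain of the common beta chain group was *Il3ra*.

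**Figure D4:**
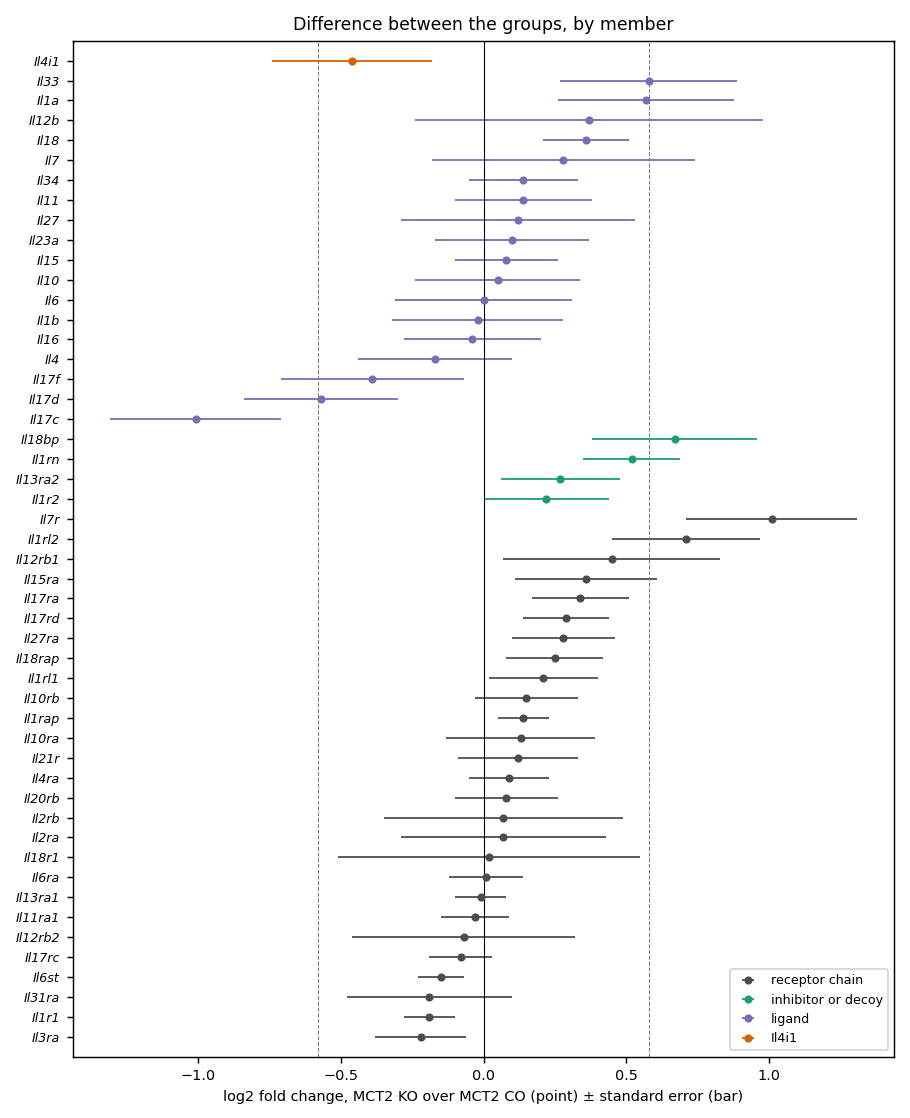
Log2 fold change of MCT2 KO over MCT2 CO (point) with its standard error (bar) from edgeR for the 50 tested members, ordered within roles, with dashed lines at the fold threshold of 0.58 in either direction. *Il7r* lies farthest to the right at 1.01 and *Il17c* farthest to the left at -1.01, and most of the other members lie within the dashed lines.

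Single libraries often set the highest or the lowest value of a member. MCT2 KO replicate 1 was the highest library for 17 of the 50 members (34%), against 20.4% of all genes tested, and MCT2 KO replicate 2 was the lowest for 17 (34%), against 22.7%. Both held at once for 8 members (16%), namely *Il1b*, *Il10ra*, *Il10rb*, *Il12b*, *Il16*, *Il21r*, *Il4ra* and *Il6ra*, against 7.33% of all genes. MCT2 KO replicate 3 was the highest library for 14 members (28%), against 12.2% of all genes. MCT2 CO replicate 3 was the lowest library for 16 members (32%, against 23.2%), *Il33*, *Il1rl1*, *Il7r* and *Il1rn* among them. Without MCT2 KO replicate 2, 10 members had an unadjusted p under 0.05 (19.6%, against 11.6% of all genes tested in that fit), and none had an adjusted p past the threshold. *Il17c*, *Il1rn* and *Il7r* were at an unadjusted p under 0.05 in all 6 edgeR fits that left out 1 library. In the single fits 5.8% to 11.6% of all genes were at such a p, and the share in all 6 was not computed. These fits share libraries, so they do not repeat the result independently. From DESeq2 on the filtered genes, the unadjusted p was 0.0513 for *Il17c*, 0.00383 for *Il1rn* and 5.18e-04 for *Il7r*.

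**Figure D5:**
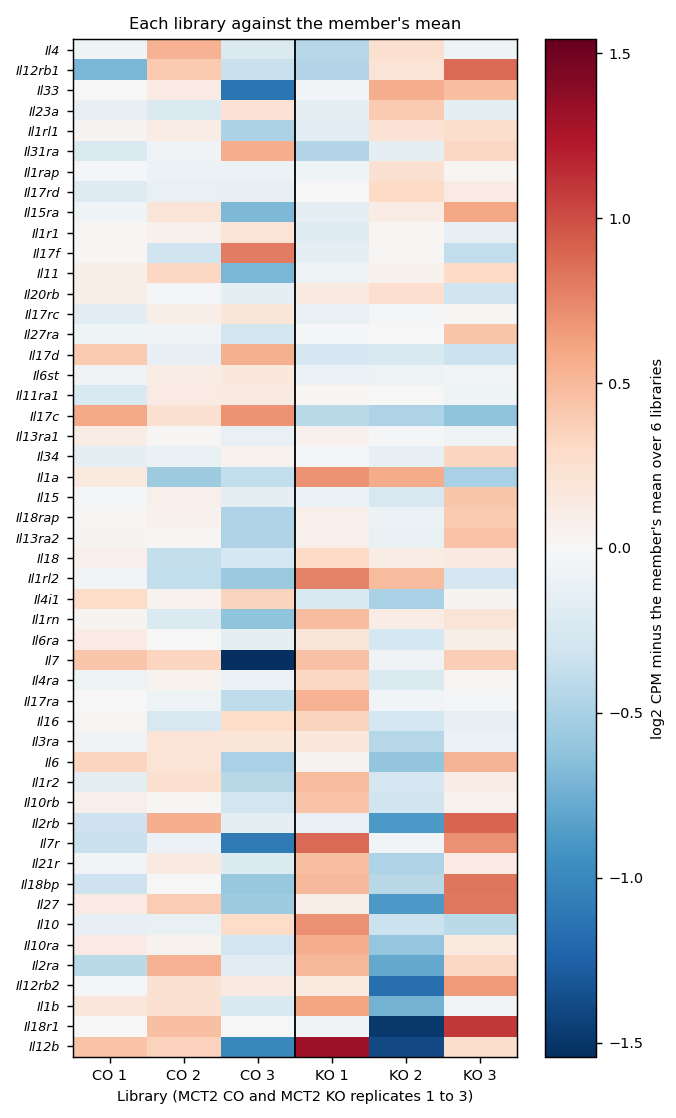
Level of each tested member in each library as the difference of its log2 CPM from its mean over the 6 libraries (red above, blue below), with MCT2 CO to the left and MCT2 KO to the right of the line. At the bottom are the members that are low in MCT2 KO replicate 2 and high in MCT2 KO replicate 1 or 3, such as *Il12b* and *Il18r1*.

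A list of signalling genes held JAK and STAT genes, feedback inhibitors, IL-1 receptor adaptors and genes of IL-1 and IL-18 maturation. It also held receptor chains and ligands that bear another name, such as *Crlf2*, *Csf1r*, *Osm* and *Lif*. The list came to 45 genes, of which 43 were tested. None was called by edgeR, 28 had positive and 15 negative log2 fold changes, the median was 0.07, and 6 (14%) had an unadjusted p under 0.05, against 9.37% of all genes. *Crlf2*, the TSLP receptor chain that pairs with *Il7r*, was at 45.0, 33.2 and 38.2 CPM in MCT2 CO and at 29.8, 16.4 and 17.8 CPM in MCT2 KO. All MCT2 KO libraries were below all MCT2 CO libraries (log2 fold change -0.87, SE 0.23, adjusted p 0.396 by edgeR), and *Crlf2* was the one gene of the list called by DESeq2, at an adjusted p of 0.0361. It lay in the opposite direction to its partner *Il7r*. *Tslp*, their ligand, was at 0.634, 1.08 and 2.82 CPM in MCT2 CO and at 0.503, 0.982 and 0.442 CPM in MCT2 KO (-1.19, SE 0.58), a value that was -0.36 without MCT2 CO replicate 3.

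*Socs1*, a feedback inhibitor of JAK kinases, was at 7.64, 6.23 and 6.81 CPM in MCT2 CO and at 4.49, 2.27 and 4.22 CPM in MCT2 KO, without overlap (-0.92, SE 0.26, adjusted p 0.426 by edgeR). *Csf2rb*, the common beta chain for interleukins 3 and 5 and GM-CSF, was at 171, 187 and 140 CPM in MCT2 CO and at 267, 190 and 205 CPM in MCT2 KO (0.41, SE 0.15, unadjusted p 0.0288). Its close copy *Csf2rb2*, with which it may share reads, had a log2 fold change of 0.45 (SE 0.19). *Tab1*, a scaffold of the TAK1 kinase downstream of the interleukin 1 receptor, and *Aim2*, a DNA sensor upstream of interleukin 1 maturation, had log2 fold changes of 0.26 (SE 0.08) and 0.28 (SE 0.12). The 11 JAK and STAT genes had a median of 0.02, and none of them was at an unadjusted p under 0.05. *Myd88*, the adaptor of the IL-1 family receptors, had no count, and all of its exonic bases (100%) lie within the span of *Slc22a14*.

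Of the 12 members at 0, some lie inside another gene. *Il2rg*, the common gamma chain itself (ENSMUSG00000031304, chromosome X, 101264378 to 101268255), had 0 counts, but 100% of its exonic bases lie within *Gm20489*, which received 138 counts in all. *Il17rb*, a receptor for interleukin 25, likewise had 0 counts with 94.87% of its exonic bases inside *Actr8*. For these genes the 0 says nothing of their level. The ligands with 0 counts were *Il3*, *Il9*, *Il17a*, *Il20*, *Il1f10* and *Il22b*, and the other members at 0 were *Il22ra1*, *Il36rn* and both rows of *Il11ra2*. A count of 0 allowed a level of up to 0.0921 to 0.126 CPM in a library (3 counts), which covers counting error only. This bound does not cover reads that fit several genes alike, which may hold for both rows of *Il11ra2*.

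The 22 members with counts too few to test included several cytokines known from T helper and innate lymphoid cells. *Il5* and *Il13*, which drive eosinophils and mucus, had 13 and 15 counts over all 6 libraries, *Il2* had 4 and *Il21* had 5, although 60.75% of the exonic bases of *Il2* lie within *Adad1*. *Il12a*, which pairs with *Il12b* to form interleukin 12, had 19 counts. The IL-36 ligands *Il36a* and *Il36b* had 1 count each and *Il36g* had 42. Of the receptors, *Il9r* had 29 counts, *Il1rapl2* 20, *Il23r* 17, *Il1rapl1* 15, *Il17re* 12, *Il20ra* 11 and *Il5ra* 4. The others were *Il22ra2* with 21 counts, *Il19* with 12, *Il25* with 6, *Il17b* with 4, *Il31* with 3, and *Il22* and *Il24* with 1 each. These counts are too few to give a firm difference between the groups.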

How the data were processed

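Poly-A RNA of CD11b+ cells in 6 samples (3 MCT2 CO, 3 MCT2 KO) was sequenced in bulk; whether animals were pooled is not given in the sources used here. Per the labels and methods, the authors prepared libraries with a stranded kit, checked reads with FastQC 0.12.0 and MultiQC 1.28, aligned them with STAR 2.7.11b to GRCm38 and counted them per gene with Subread featureCounts 2.1.1. They deposited raw counts, and their own test was DESeq2 1.18.1. The strand setting of the counting is not given in the sources used here. The positions in the deposited table match GENCODE M21 on GRCm38 for 2.4% of genes, although 98.1% have the same span, so positions printed here come from GENCODE M21 by Ensembl identifier (25645 of 25701 found). Genes lying within the span of another listed gene had few or no counts, and the share of such exonic bases is given beside the members concerned.

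Counts were filtered with filterByExpr (minimum count 10, minimum total 15), TMM-normalized and tested with edgeR 4.0.16 (quasi-likelihood, Benjamini-Hochberg over 13485 genes). Called genes had an adjusted p not above 0.05 and a log2 fold change of 0.58 or more in either direction, the study's thresholds. Alternatives were DESeq2 1.42.0, limma-voom (limma 3.58.1), DESeq2 size factors, no filter, a replicate block and leaving out each library, run in R 4.3.3. Ratios and levels per kilobase of exon were computed in Python 3.11.15. The edgeR and DESeq2 tests were tried on simulated counts with 200 genes changed 4-fold, and each recovered 95.5% of them. Of the calls made there, 5.45% were false with edgeR and 9.48% with DESeq2. Recovery of smaller changes, such as the members' log2 fold changes of -1.01 to 1.01, was not tested. Library totals ranged from 24863611 to 31713704 counts. The p-values of edgeR and DESeq2 weigh a difference between the groups against the spread among these 3 samples a group. That spread is estimated with the help of the other genes tested.

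Values per sample are given for tested members past that fold threshold, with an unadjusted p under 0.05 or groups that did not overlap, for the 8 ligands and 8 receptor chains of highest mean level, and for chains that macrophages are known for. Of the signalling genes, those past the same fold or p are named, and *Il2rb*, *Il12b*, *Il12rb2*, *Il18r1* and *Il21r* were added after their values were seen. The members, the roles and the lists were chosen with earlier results of these data known. Of the 50 tested members, 38 had an entry in the RefSeq promoter table.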

Additional observations from a re-analysis of the deposited data

How the results depend on the processing

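No alternative called a member: the count of called members was 0 with DESeq2, limma-voom, DESeq2 size factors, no low-count filter and every single library left out. Over all genes, edgeR called 0, DESeq2 79 on the filtered genes and 83 on all genes with a count, and edgeR without the filter 2. Leaving out single libraries gave 0 to 2 calls over all genes, the 2 without MCT2 KO replicate 2. Of the signalling genes, DESeq2 called 1, *Crlf2*, in both settings (-0.86 filtered, -0.85 on all genes), and *Slc16a7* passed the threshold there at -1.05 and -1.04. The number of members at an unadjusted p under 0.05 was 4 to 10 when single libraries were left out, the 10 without MCT2 KO replicate 2, and 5 to 7 otherwise. With single libraries left out, the members' share ran from 7.84% to 19.6%, and that of all genes from 5.8% to 11.6%. Otherwise the shares ran from 9.72% to 12% and from 6.7% to 9.37%. The members' share was the higher in every fit, but the fits share libraries. The ligand median was -0.01 with limma-voom and 0.00 without the filter, and the median of all genes moved by at most 0.01 with the scaling. Of 420 recomputed values of named genes, 391 kept their sign and side of the threshold and 27 changed sign, 21 of them with a library left out. Those were genes near 0, for which the cause was not tested: *Il10* (-0.04 with limma-voom, -0.03 with the replicate block) and *Il6* (0.01 with DESeq2 in both settings, 0.00 with its size factors and without the filter). With single libraries left out, the ranges were -0.41 to 0.25 for *Il1b*, -0.11 to 0.35 for *Il11*, -0.39 to 0.25 for *Il10*, -0.13 to 0.22 for *Il15*, -0.30 to 0.25 for *Il6*, -0.15 to 0.39 for *Il10ra*, -0.05 to 0.21 for *Il4ra*, -0.07 to 0.04 for *Il13ra1*, -0.07 to 0.14 for *Il6ra* and -0.05 to 0.32 for *Il10rb*. The labels' replicate numbers gave no pairing, since deviations of same-numbered samples correlated at 0.22, -0.25 and -0.16. Across numbers, MCT2 CO replicate 2 and MCT2 KO replicate 3 were at 0.27, and MCT2 CO replicate 3 and MCT2 KO replicate 2 at 0.29. The other pairs ran from -0.21 to 0.06, and no block was fitted across numbers. The fit with the replicate block called 0 members and 0 genes, with 6 members at an unadjusted p under 0.05 (12%, against 7.77% of all genes).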

Other observations

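*Il36g*, an IL-36 ligand of epithelia and myeloid cells whose receptor is *Il1rl2*, was below the filter but had 5, 1 and 6 counts in MCT2 CO and 12, 7 and 11 counts in MCT2 KO. Scaled to library size the groups overlapped, since MCT2 CO replicate 3 (0.226 CPM) lay above MCT2 KO replicate 2 (0.215 CPM), and 42 counts in all are too few for a firm value. *Il36g* was at an unadjusted p under 0.05 by edgeR in 2 of the 6 fits that left out 1 library, without MCT2 CO replicate 3 and without MCT2 KO replicate 2. *Il21*, a cytokine of follicular helper T cells, had 2, 1 and 2 counts in MCT2 CO and 0 in each MCT2 KO library, and was at an unadjusted p under 0.05 when edgeR was run without the filter. Groups without overlap were also found for *Il12a* (lower, 19 counts in all) and *Il20ra* (higher, 11 counts), both below the filter. These genes were singled out after their counts were seen. The B cell markers summed to 80.8 to 97.3 CPM in MCT2 CO and 24.2 to 110 CPM in MCT2 KO, with negative log2 fold changes for 7 of 7 tested markers.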
